A study of Mus musculus with 4 samples.

Results

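Isolated Gata6 peaks are listed intervals that have no other listed Gata6 peak within 200 kb on either side. They were chosen by position alone, from the distances between the midpoints of a deposited peak list for primary mouse keratinocytes on build mm9. The first and the last peak of each chromosome were left out, since each of these has a neighbour on 1 side only. The rule was met by 832 peaks, 6.86% of the list, and 11305 peaks did not meet it. Without the 40 end peaks, isolated peaks made up 6.88% of 12097 peaks (95% Wilson interval 6.44 to 7.34%).

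Gata6 is a zinc-finger transcription factor that recognises short DNA sites with GATA at their core. In skin it is known for its part in the sebaceous duct and the upper hair follicle, where it marks cells of the sebaceous lineage. Factors of this kind bind enhancers as well as promoters, and the enhancers of a gene can lie together in a regulatory domain or far from any other.

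All libraries came from keratinocytes of dorsal skin on a C57BL6/CBA background with the K14deltaNLef1 transgene, infected with a lentivirus that overexpresses Gata6. The transgene uses the keratin 14 promoter, active in basal epidermal cells, to express a Lef1 protein without the N-terminal part through which Lef1 binds beta-catenin. The Gata6 group holds 2 libraries, 1 made with an antibody from R&D Systems and 1 made with an antibody from Cell Signaling (clone name D61E4). As controls there are 1 library made with a Flag antibody and 1 of input DNA. The label of the R&D Systems library writes the genotype as K14deltaNLef1N, and the extraction text names complexes of truncated Lef1 in place of Gata6. The titles and antibody labels were followed. Every library therefore carries both the transgene and the excess of Gata6, and no library shows binding at the normal level of Gata6. The keratinocytes were grown on irradiated 3T3-J2 mouse fibroblasts, and whether these were removed before the chromatin was prepared was not stated in the labels, nor were the age and number of the mice.

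The list is the authors' overlap of Gata6 peaks and is 1 table for the whole series. It gives a start, an end and a name for each interval, has 0 in every row of its score column, and holds no read count or value for any single library. The depth of the libraries is therefore unknown here, and binding at isolated peaks could not be compared between the antibodies or with the Flag and input libraries. Because position chose the members, and because peaks of 1 list are not replicates, the values below are descriptions without p-values. Intervals given with shares are 95% Wilson intervals and cover counting error only. No gene is named for any peak, and no sequence is shown, because no genome or annotation of build mm9 was used here.

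Most isolated peaks lay less than 1 Mb from their closest neighbour, and a minority lay several Mb away. The distance to the nearest midpoint had a median of 344 kb (interquartile range 253 to 548 kb), against a median of 18.6 kb over all peaks that are not at a chromosome end. On the emptier side the next peak was a median of 906 kb away. For 248 isolated peaks (29.8%) the nearest peak was more than 500 kb away, for 79 (9.50%) it was more than 1 Mb away, and for 3 it was more than 5 Mb away. The 79 peaks were spread over 18 chromosomes, with 12 of them on chromosome X. Isolated peaks covered 110 kb of sequence, 6.84% of the 1612 kb covered by the whole list. When the space between neighbours is split at the midpoint, they held 804 Mb of the 2546 Mb between the first and last peaks of the chromosomes, or 31.6%. These distances follow from the rule and describe what it selected.

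**Figure D1:**
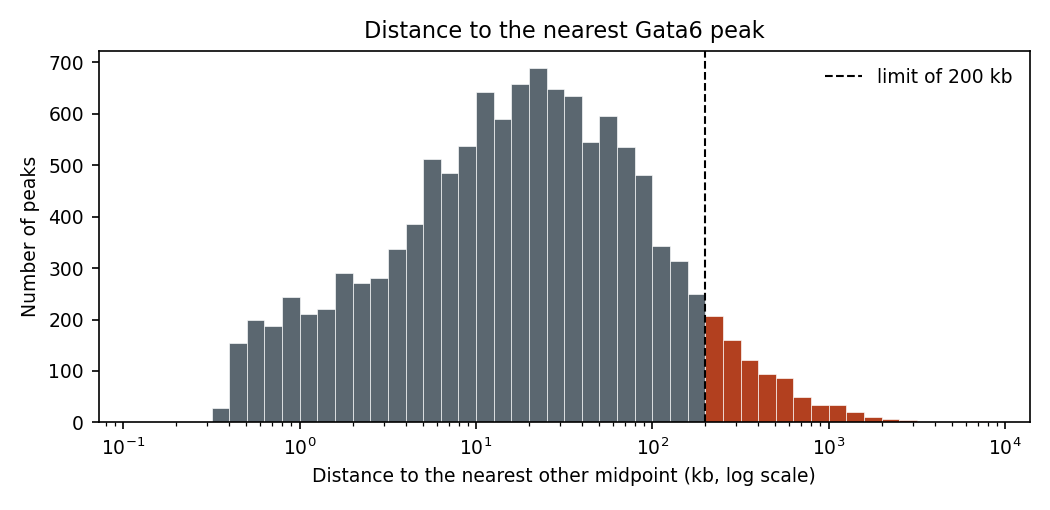
Number of peaks (vertical axis) by distance to the nearest other midpoint (horizontal axis, kb, log scale), for the 12097 peaks that are not at a chromosome end. Isolated peaks, to the right of the dashed line at 200 kb, form the upper tail of a single broad distribution, with no gap at the limit.

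The limit cuts through a continuous range of distances. Just inside it were chr13:90229073-90229215 (nearest midpoint at 200.3 kb, name number 203), chr10:56502220-56502356 (200.3 kb, name number 3042) and chr8:127919274-127919437 (200.4 kb, name number 272). Just outside it were chr15:12702811-12702926 (199.2 kb, name number 247), chr4:4761231-4761373 (198.6 kb, name number 809) and chr19:11887823-11887931 (198.6 kb, name number 642). The peak on chromosome 15 has an empty stretch of 6.85 Mb on its other side, so a peak beside a long desert can still miss the rule.

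The peaks farthest from any other stood inside long stretches without Gata6 peaks. The most distant was chrX:82819120-82819195, a 76-bp interval 7.76 Mb from the peak before it and 7.96 Mb from the peak after it. It was followed by chr4:72325542-72325638, a 97-bp interval with 7.06 Mb and 8.24 Mb free on its sides. The third was chrX:115943935-115944100, an interval of the largest width in the list, 166 bp, with 5.67 Mb and 10.1 Mb free. These 3 peaks differ in their widths and in their name numbers, which are 269, 1168 and 55.

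Chromosome 15 held 3 of the 10 most distant peaks. The pair chr15:19552211-19552355 and chr15:22662889-22663047 lay 3.11 Mb apart, with 6.85 Mb free before the first and 2.54 Mb after the second. The other, chr15:41559297-41559453, had 2.62 Mb and 8.98 Mb free. The remaining members of the 10 were chr6:75936500-75936607 (nearest peak at 2.99 Mb), chr14:97082731-97082860 (2.44 Mb), chr1:26452653-26452808 (2.33 Mb) and chr2:16146729-16146873 (2.15 Mb). On chromosome 14 the stretch before the peak was 9.26 Mb long.

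Among the 33 stretches of more than 5 Mb without a listed peak, 17 were bordered by an isolated peak at 1 end and 6 at both ends. The other 10 had no isolated peak at either end.

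The share of isolated peaks was highest on the chromosomes with few peaks per Mb. On chromosome X 58 of 173 peaks were isolated (33.5%, interval 26.9 to 40.9%), against 774 of 11924 on the autosomes (6.49%, 6.06 to 6.95%). Chromosome 14 followed with 48 peaks (16.1%, 12.3 to 20.6%) and chromosome 12 with 33 (9.48%, 6.83 to 13.0%). The lowest shares were on chromosome 19 with 11 peaks (2.59%, 1.45 to 4.59%), chromosome 11 with 36 (3.76%, 2.73 to 5.16%) and chromosome 6 with 40 (4.36%, 3.22 to 5.88%). The intervals of chromosomes X and 14 lay above the shares of all other autosomes and did not overlap each other. The interval of chromosome 14 did overlap that of chromosome 12. From chromosome 12 down to chromosome 8, the 9 chromosomes in that part of the order had shares of 6.84 to 9.48% with overlapping intervals. Across the 20 chromosomes Spearman's rho of the share and the density of listed peaks was -0.89, and across the 19 autosomes it was -0.87. Both measures come from the same positions, so this describes the list and carries no test.

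**Figure D2:**
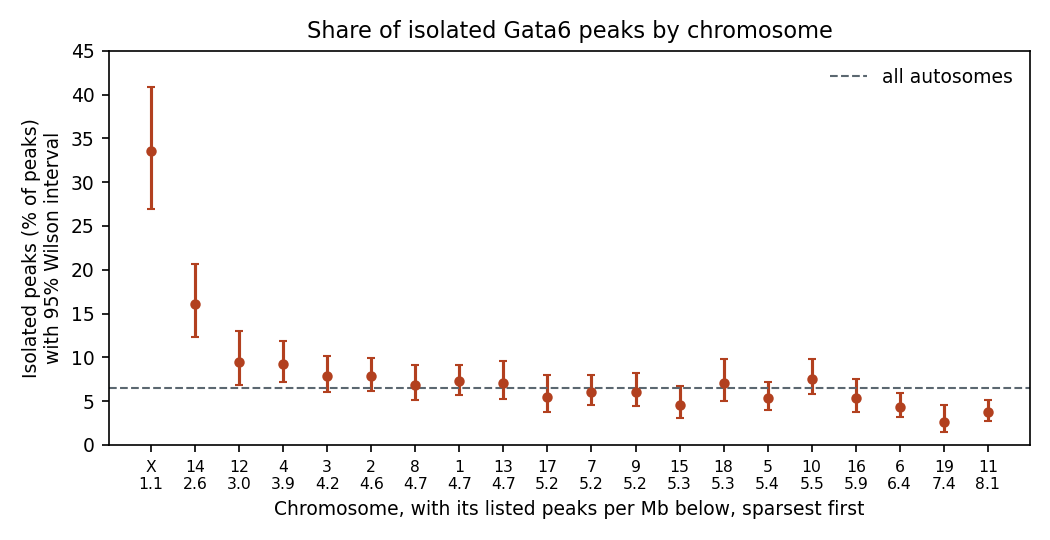
Isolated peaks as a percentage of the peaks of each chromosome that are not at its ends (vertical axis, points with 95% Wilson intervals), with chromosomes ordered from few to many listed peaks per Mb (horizontal axis). Chromosomes X (33.5%) and 14 (16.1%) stand farthest above the dashed line for all autosomes (6.49%). The intervals of chromosomes 12 and 4 also lie above this line, and chromosomes 6, 19 and 11 at the dense end stand below it.

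The number of isolated peaks per Mb varied less among autosomes than the number of all peaks. It ranged from 0.19 per Mb on chromosome 19 to 0.42 per Mb on chromosome 14, a 2.22-fold range, while all peaks ranged from 2.64 to 8.09 per Mb, a 3.06-fold range. Chromosome X had 0.36 isolated peaks per Mb, within the range of the autosomes, although its density of all peaks was 1.09 per Mb. It carried 6.97% of the isolated peaks and 1.44% of the list. Of the span of chromosome X, 59.6% lay nearer to an isolated peak than to any other kind, against 17.2 to 49.3% of the span of each autosome. The densities are not corrected for copy number, unassembled sequence or mappability, and the part of these in the order of the chromosomes was not tested.

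Among the neighbours of isolated peaks, the share of isolated peaks was near that among the peaks at all ends of gaps over 200 kb. By the rule an isolated peak has such a gap on both sides. Each has a neighbour on both sides, which gives 1664 neighbours counted by side, and 584 of these (35.1%) were isolated peaks themselves. Over the list, 2525 gaps between neighbouring peaks were longer than 200 kb, and isolated peaks stood at 1664 (33.0%) of their 5050 ends, so the 35.1% is near this share. Both neighbours were isolated for 123 peaks, 1 neighbour for 338 and none for 371. A further 151 neighbours (9.07%) had a peak of their own within 5 kb, against 9.35% of the peaks at all ends of such gaps. The share in the whole list was 23.2%, but the lower shares beside gaps follow in part from the rule. Isolated peaks, which cannot have a peak within 5 kb, are counted among these neighbours and gap ends. Every peak beside such a gap also has an empty side, so no conclusion is drawn from the contrast with the list.

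Isolated peaks formed 540 unbroken series, in which a peak that is not isolated occurs nowhere between the first and the last. There were 371 series of 1 peak, 100 of 2, 38 of 3 and 20 of 4, and 11 series had 5 to 8 peaks. The 2 longest had 8 peaks each, on chromosome 7 from 59593282 to 70642337 (11.0 Mb between the outer midpoints) and on chromosome X from 137702150 to 147944742 (10.2 Mb). Chromosome X also had both series of 7 peaks, from 17375745 to 33471140 and from 103239452 to 115944100. The second of these ends with the third most distant peak described above.

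In the series on chromosome 7 the gaps from peak to peak were 890 kb, 1.10 Mb, 1.53 Mb, 207 kb, 2.74 Mb, 1.48 Mb and 3.11 Mb. Its name numbers ran from 305 to 1741 and its widths from 53 to 162 bp. In the series on chromosome X the gaps were 1.25 Mb, 382 kb, 1.42 Mb, 1.17 Mb, 5.33 Mb, 235 kb and 464 kb. Its name numbers ran from 15 to 334 and its widths from 111 to 165 bp. Peaks of low and high number, and of wide and narrow intervals, thus occurred side by side within 1 series. At 4 of the 8 peaks on chromosome X the name number was 45 or lower (15, 23, 26 and 45), while on chromosome 7 the lowest was 305. The list holds 175 peaks of chromosome X and 775 of chromosome 7, so these numbers are on unlike scales. As percentiles within the chromosome, the 4 peaks were at 7.4 to 23.4 and number 305 on chromosome 7 was at 35.9.

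Name numbers were higher at isolated peaks than at the other peaks. Each interval's name joins its chromosome to a whole number, and the labels do not say what it counts. Over the whole list, intervals with low numbers are wider. To set chromosomes side by side, each number was turned into its percentile among the listed numbers of its own chromosome. The mean percentile was 55.9 ± 27.8 (SD, 832 peaks) for isolated peaks and 49.7 ± 28.9 (SD, 11305 peaks) for all other peaks, a difference of 6.25 percentile points. The medians were 59.6 and 49.2. The spread within each group was several times larger than this difference.

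The direction was shared by nearly all chromosomes. The mean percentile was higher at isolated peaks on 19 of 20 chromosomes, the exception being chromosome 15 with a difference of -0.59 points. The differences averaged 6.63 ± 3.89 points (SD over 20 chromosomes) and reached 13.5 points on chromosome 17. Chromosome X had a mean percentile of 52.9 at its 58 isolated peaks and 49.0 at its other peaks.

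**Figure D3:**
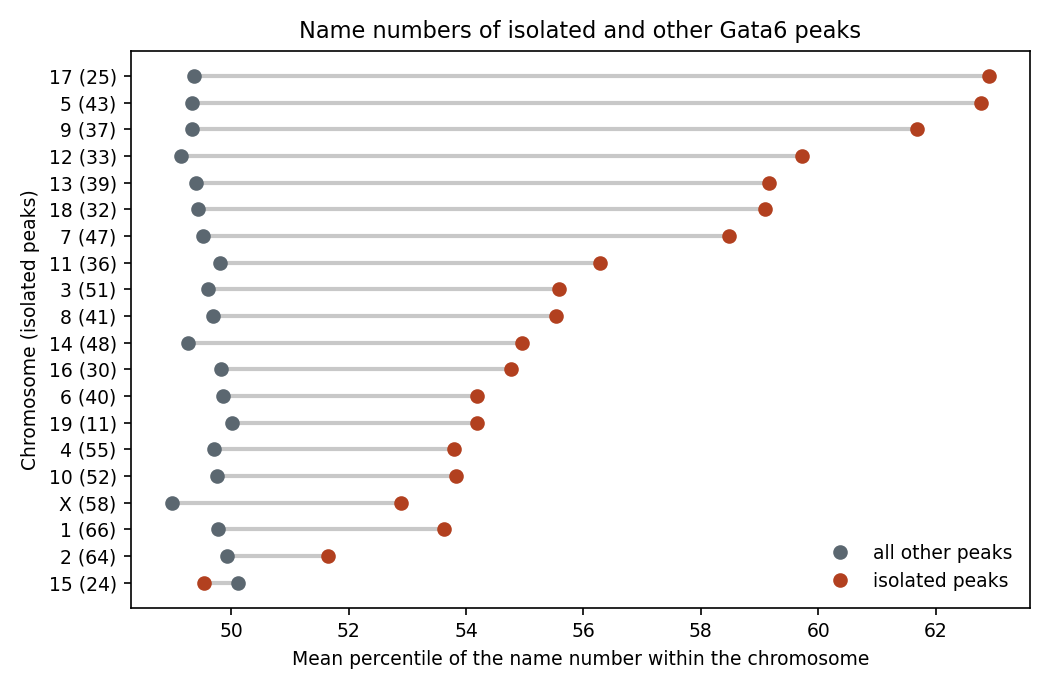
Mean percentile of the name number within the chromosome (horizontal axis) for isolated peaks and for all other peaks of each chromosome (vertical axis, with the number of isolated peaks in brackets). Isolated peaks lie to the right on 19 chromosomes, most on chromosome 17 (62.9 against 49.4), and to the left on chromosome 15 (49.5 against 50.1).

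Isolated peaks had a smaller share of low numbers and a larger share of high ones. Of the isolated peaks 158 (19.0%, interval 16.5 to 21.8%) were at or below the 25th percentile of the numbers of their chromosome, against 25.4% (24.6 to 26.2%) of the other peaks. Above the 75th percentile were 250 isolated peaks (30.0%, 27.0 to 33.2%), against 24.7% (23.9 to 25.5%) of the others. Read the other way, 320 of 6042 peaks up to the 50th percentile were isolated (5.30%, 4.76 to 5.89%), against 512 of 6055 above it (8.46%, 7.78 to 9.18%). On autosomes alone these shares were 4.99% (4.46 to 5.57%) and 7.99% (7.33 to 8.71%). In steps of 10 percentile points, the share of isolated peaks was 4.08% in the lowest step, 5.12 to 6.11% in the next 4 steps and 7.64 to 8.93% in the highest 5. The shares were lower up to the 50th percentile than above it, with overlapping intervals on each side of it. Some intervals also overlapped across the 50th percentile, as at 10 to 20 (4.89 to 7.60%) and at 90 to 100 (6.27 to 9.26%).

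The share of low numbers was smaller at isolated peaks on 17 chromosomes, equal on chromosome 15 and larger on chromosomes 2 and X. At or below the 25th percentile were 18 of the 58 isolated peaks of chromosome X (31.0%, interval 20.6 to 43.8%), against 21.4% (14.9 to 29.6%) of its other peaks. On the autosomes together the shares were 18.1% (15.5 to 21.0%) and 25.4% (24.6 to 26.2%). Above the 75th percentile chromosome X had the same order as the autosomes, with 29.3% (19.2 to 42.0%) of its isolated and 23.1% (16.4 to 31.5%) of its other peaks. Its intervals overlapped in both comparisons, and a difference between chromosome X and the autosomes was not tested.

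Below the limit the mean percentile was higher in each wider class of distance from 5 kb on. It was 46.7 for peaks with a neighbour within 1 kb, 45.9 at 1 to 5 kb, 49.0 at 5 to 20 kb, 50.9 at 20 to 50 kb, 53.0 at 50 to 100 kb and 53.7 at 100 to 200 kb. Among isolated peaks it was 57.4 at 200 to 300 kb (335 peaks), 52.8 at 300 to 500 kb (249 peaks), 57.8 at 500 kb to 1 Mb (169 peaks) and 55.0 beyond 1 Mb (79 peaks). Among isolated peaks there was thus no steady order with distance, and Spearman's rho of distance and percentile was -0.02 over the 832 peaks. Against only those other peaks that had no neighbour within 100 kb, the difference of isolated peaks was 2.34 points. This was smaller than the difference from the whole of the other peaks.

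**Figure D4:**
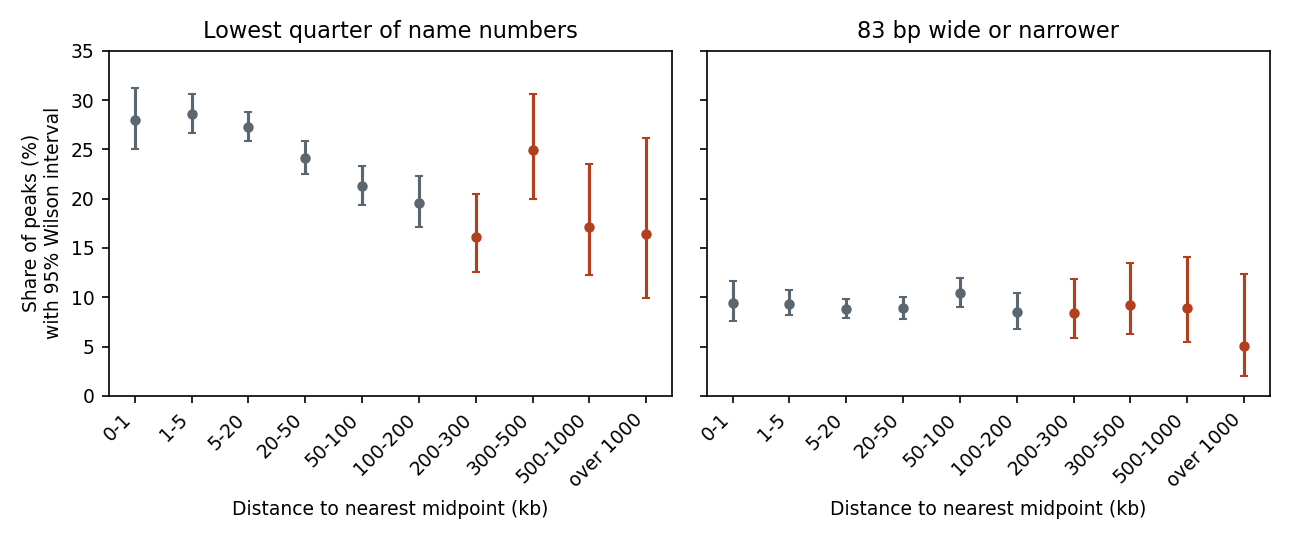
Share of peaks (vertical axes, points with 95% Wilson intervals) at or below the 25th percentile of name numbers (left) and 83 bp wide or narrower (right), by distance to the nearest midpoint (horizontal axes, kb). The left share goes from 28.0% within 1 kb to 19.6% at 100 to 200 kb and is 16.1 to 24.9% among isolated peaks, whereas the right share stays between 5.06 and 10.4% in all classes.

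Of the 936 peaks numbered 1 to 50 that are not at a chromosome end, 56 were isolated (5.98%, interval 4.64 to 7.69%). At higher numbers the share was 6.95% (6.50 to 7.44%), with overlapping intervals. These shares pool the chromosomes, and 18 of the 56 peaks lay on chromosome X. On autosomes alone, numbers 1 to 50 made up 4.91% of the isolated peaks and 7.68% of the others, with intervals that did not overlap. On chromosome X the order was reversed, at 31.0% and 23.1%, with overlapping intervals. Isolated were 7 of the 189 listed peaks numbered 1 to 10 and none of the 56 numbered 1 to 3, beside the share of 6.88% over all peaks. The peaks numbered 1 to 3 had their nearest neighbour at a median of 18.3 kb and at most 159 kb, leaving out 1 that is at a chromosome end. The lowest number at an isolated peak was 4, at chr6:117340526-117340689, chr13:63783745-63783906 and chr14:32217284-32217428. Their nearest neighbours were at 489 kb, 206 kb and 272 kb.

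Next came number 5 at chrX:94571967-94572092 (nearest neighbour at 1.27 Mb), number 6 at chr2:163054939-163055104 (218 kb) and at chrX:157183466-157183631 (360 kb), and number 7 at chr1:94350709-94350850 (215 kb). Number 11 was at chr14:102782822-102782974 (492 kb) and at chrX:18745731-18745887 (294 kb). Number 12 was at chrX:65748294-65748432, which has 12.0 Mb free before it and its nearest neighbour 268 kb after it. Of these 10 peaks 4 lay on chromosome X. All 10 were at least 126 bp wide, and 2 had the largest width of 166 bp. The number is low on chromosome X more easily, since its list holds 175 peaks. As percentiles, the 10 peaks ranged from 0.37 on chromosome 2 to 5.71 on chromosome X.

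In width isolated peaks were close to the rest of the list. Their median width was 143 bp (interquartile range 118 to 157 bp), against 143 bp (120 to 157 bp) for the others. The means were 132.6 ± 33.7 bp (SD, 832 peaks) and 132.9 ± 33.0 bp (SD, 11305 peaks), a difference of -0.30 bp. By chromosome the difference was positive on 11 and negative on 9, with a mean of -0.63 ± 7.13 bp (SD over 20 chromosomes). It was farthest from 0 on chromosome 19, at -21.5 bp with 11 isolated peaks. A width here is that of a listed overlap interval, which can be narrower than the binding site.

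The tails of the widths were compared in the same way. Of the isolated peaks 70 (8.41%, interval 6.71 to 10.5%) were 83 bp wide or narrower, against 9.16% (8.65 to 9.71%) of the others. The largest width, 166 bp, was found at 51 isolated peaks (6.13%, 4.69 to 7.97%) and at 6.31% (5.87 to 6.77%) of the others. Intervals of 10 bp or less were found at 11 isolated peaks (1.32%, 0.74 to 2.35%) and at 67 others (0.59%, 0.47 to 0.75%), with intervals that overlap slightly. Intervals of a single base made up 0.48% of isolated peaks (4 peaks) and 0.04% of the others, a contrast that rests on few peaks. The narrowest isolated peaks were 4 single bases, at position 68648857 of chromosome 10, position 17509006 of chromosome 16, position 62890351 of chromosome 18 and position 33698992 of chromosome 3. A 3-bp interval followed at chr1:59009127-59009129. Their name numbers were in the upper part of their chromosomes, at percentiles from 74.1 on chromosome 16 to 99.1 on chromosome 18.

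**Figure D5:**
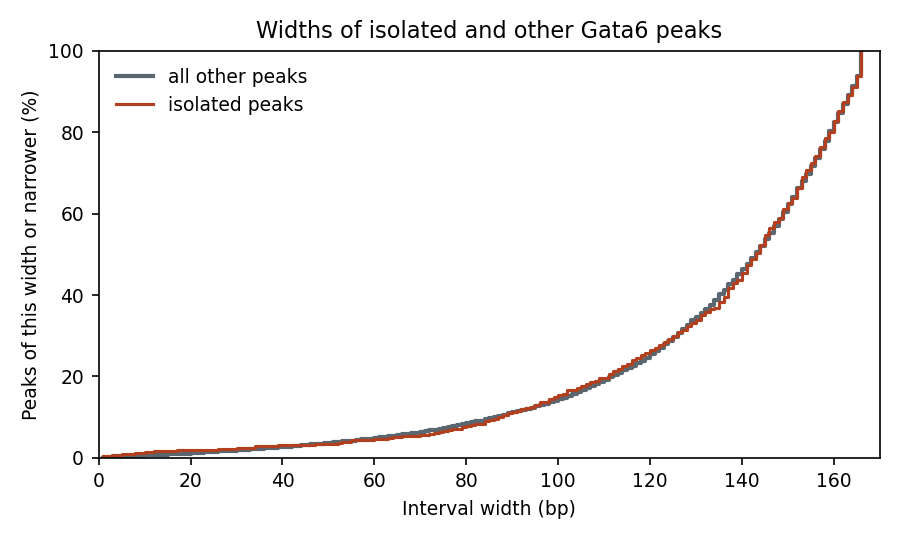
Cumulative share of peaks (vertical axis, %) by interval width (horizontal axis, bp) for isolated peaks and for all other peaks. The curves run on each other through the shared median of 143 bp up to the largest width of 166 bp.

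Width went down with name number among isolated peaks as it did elsewhere. Spearman's rho of percentile and width was -0.22 across 832 isolated peaks and -0.24 across the others. These are relations across peaks of 1 list, given without a test. Up to the 25th percentile the mean width was 142.3 ± 27.6 bp (SD, 158 peaks) for isolated peaks and 144.5 ± 22.8 bp for the others. From the 50th to the 75th percentile it was 133.4 ± 32.7 bp (SD, 262 peaks) and 129.4 ± 33.8 bp, and above the 75th percentile it was 123.4 ± 37.9 bp (SD, 250 peaks) and 122.6 ± 38.8 bp. At similar numbers the means of the 2 groups were thus within 4 bp of each other, against an SD of 22.8 bp or more in each group. Intervals of at most 83 bp made up 3.16% (1.36 to 7.19%) of the isolated peaks up to the 25th percentile and 14.8% (10.9 to 19.7%) of those above the 75th.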

How the data were processed

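Chromatin immunoprecipitation with sequencing was done on 4 libraries, as described above. BWA, HOMER and build mm9 are named in the submitters' processing notes. Their roles and versions, the calling threshold and the overlap rule were not stated. In the table deposited by the authors, which has no header, every score is 0 and every strand is plus. The deposited start and end were read as BED positions and are printed 1-based, and the width is the end minus the start. The reference tables at hand belong to build GRCm38 and were not used.

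The midpoint, the distances to the next midpoints on both sides and the percentile of the name number within the chromosome were computed with Python 3.11.15, pandas 2.3.3, SciPy 1.17.1 and NumPy 2.4.6. Figures were made in matplotlib 3.10.9. The rule was checked on simulated lists against all pairwise distances. No tests between groups of peaks were run. The members, lists and summaries were chosen with earlier results of these data known. Peaks named are the 10 farthest from a neighbour, the 10 with the lowest number, 3 on each side of the limit, the 5 narrowest and the longest series. The longest series was a tie, so both were named, and the series of 7 peaks, the stretches over 5 Mb and the peak on chromosome 15 beside a long empty stretch were described after their values were seen. Alternatives changed the distance, merged close peaks, left out narrow peaks or chromosomes, and weighted chromosomes equally.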

Additional observations from a re-analysis of the deposited data

How the results depend on the processing

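Of 36 values recomputed under other settings, 33 stayed within a set range of the reported ones. The range was 1.5 times for the count of isolated peaks, the Wilson interval for shares and 1 SD over chromosomes for differences. The number of isolated peaks was 832, but 1742 with a limit of 100 kb and 248 with a limit of 500 kb, since the limit itself sets it. It was 774 to 850 under the 6 other settings. The difference in percentile was 5.46 to 6.98 points over 7 such values on the percentile scale, lowest with a limit of 100 kb and highest with one of 500 kb. Expressed as numbers as written, the medians differed by 68.5, on another scale. No range was set for this value, and it was counted among those outside. With only other peaks over 100 kb from a neighbour, an alternative chosen after seeing the data, the difference in percentile was 2.34 points. This lay outside the set range. The other 81 of the 82 values added after seeing the data stayed within it. Nearly all of these left out 1 chromosome, which removes few peaks, so staying within the range was likely beforehand. Those without chromosome 10 or X repeat planned settings. With each chromosome left out in turn, also chosen after seeing the data, the difference in percentile was 5.85 to 6.62 points. The share up to the 25th percentile was then 18.1 to 19.5%. The width difference changed sign, from -0.30 bp to 0.38 bp with a limit of 100 kb, and from -0.93 to 0.29 bp with a chromosome left out, always within the SD over chromosomes. No paired analysis was possible because no value belongs to a single library, and for the same reason none could be left out. The planned descriptions of gene context and of sequence were not run, since no mm9 genome was used. Numbers missing from the names are not described, because they could be placed only over stretches with a median length of 4.45 Mb. Library depth, unknown here, limits which sites are listed, and a site that missed the list can make its neighbour isolated.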

Other observations

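Some close groups of peaks stood as alone as the isolated peaks, although the rule leaves their members out because of each other. With peaks within 1 kb of the next joined into 1 site, 18 isolated sites were pairs. With 5 kb, 63 isolated sites held 2 or 3 peaks (58 pairs and 5 groups of 3), together 131 peaks, beside the 832 single peaks. Sites of more than 1 peak made up 7.04% of the isolated sites and 12.3% of all sites. The 131 peaks had a mean percentile of name number of 53.0 ± 27.6 (SD) and a median width of 149 bp.

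The 5 isolated groups of 3 peaks were named after their values were seen. The most distant was chr4:25742586-25745292, with 5.09 Mb free before it and 4.53 Mb after it and with name numbers 1100, 191 and 192. Chromosome 17 had a pair of such groups, chr17:21670497-21673937 (3.68 Mb and 2.01 Mb free, name numbers 380, 381 and 424) and chr17:41017539-41022350 (3.94 Mb and 1.87 Mb free, name numbers 497, 143 and 40). The others were chr1:128546471-128548814 (948 kb and 565 kb free) and chr6:113640652-113646757 (204 kb and 680 kb free).

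Some neighbours in position had consecutive name numbers. The share expected for numbers unrelated to position depends on the count of listed peaks of a chromosome, which was 175 to 959. That share was not computed, and whether the numbers follow position was not tested. Consecutive numbers were found at 49 of 1372 neighbouring pairs with at least 1 isolated peak (3.57%, 95% Wilson interval 2.71 to 4.69%). They were found at 318 of 10745 pairs without one (2.96%, 2.66 to 3.30%), with overlapping intervals.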
